A study of Mus musculus with 6 samples.

Results

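Adhesion G protein-coupled receptors are a class of membrane receptors, and Adgrl2, the gene now carrying the older name Lphn2, is one of them. Their genes were taken from the count tables as every symbol that begins with Adgr together with Celsr1, Celsr2 and Celsr3, which gave 29 of 24421 symbols. The libraries were made from mouse material of the C57BL/6N strain labelled as whole embryo at embryonic day 9.5, and 3 carried the genotype label wild type and 3 the label Lphn2 KO, titled as homozygous. The labels name no allele, no deleted exon and no litter, and do not say whether a sample was 1 embryo or several, so a p-value here reflects variation among these libraries, some of which may be technical. Reads were tags from transcript 3' ends (Lexogen QuantSeq), and levels are given as CPM, counts relative to library size, after TMM scaling of the libraries.

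Receptors of this class carry a long extracellular part that binds proteins on neighbouring cells or in the matrix. Next to the membrane lies a GAIN domain, in which most members cut themselves. When the outer piece is pulled away, the new end of the inner piece acts as a tethered agonist and the receptor signals through G proteins. Latrophilins (Adgrl1, Adgrl2 and Adgrl3 of the L subfamily) bind FLRT proteins and teneurins and are known for synapse formation. Celsr proteins are known for planar cell polarity, the B subfamily for brain, and the E subfamily for leukocytes.

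Total counts lay between 14476809 and 36213611 per library, so that 3 counts, taken here as the limit of detection for a symbol at 0, were worth between 0.0784 and 0.214 CPM. Such limits cover counting error only. The libraries held markers of tissues outside the embryo, at levels that differed between libraries. Summed over a list of 10 decidual markers, wild type libraries held 18140 to 33070 CPM and knockout libraries 7187 to 12140 CPM. Prl8a2 made up most of the wild type sums, and 7 of the 10 markers had a log2 fold change above 0 (median 0.97). Over 12 trophoblast markers, wild type libraries held 1476 to 6037 CPM, knockout replicate 1 held 3851 and the other knockout libraries 54.3 and 147 CPM, so knockout replicate 1 stood apart from its group. Over 12 yolk sac endoderm markers, wild type libraries held 449 to 705 CPM and knockout libraries 25.3 to 209 CPM, with all 12 below 0. Over 12 neural markers, wild type replicates 1, 2 and 3 held 112, 66.9 and 1006 CPM and knockout libraries 24.1 to 58.8 CPM, so wild type replicate 3 stood apart as well. In whole samples, fewer cells of a type and less RNA per cell cannot be told apart.

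Of the 29 receptor genes, 19 averaged at least 1 CPM over the 6 libraries and 10 lay below that. A filter on low counts left 20 for testing. The 29 together made up 787, 857 and 789 CPM across wild type replicates 1, 2 and 3 and 887, 935 and 1078 CPM across knockout replicates 1, 2 and 3. Adgrf4 alone took 28.4% to 50.3% of that sum in wild type and 39.3% to 55.2% in knockout libraries. The counts of Adgrf4 were all multiples of 4, as described below, so these shares and sums may be too high. Without Adgrf4 the sums were 447, 426 and 565 CPM across wild type and 466, 568 and 483 CPM across knockout libraries, and the groups overlapped.

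Start regions are printed for Adgrl2, the targeted gene, for Adgrl4, a relative on the same chromosome with a difference of opposite sign, for Adgrf4, the receptor with the most counts, and for Celsr2, which was read almost wholly in 1 library. They come from RefSeq on GRCm38.p6 (the mm10 build), in which 21 of the 29 genes had an entry, and hold up to 250 bases before the transcript start, 5′ to 3′ on the strand of the gene. Capitals mark CG dinucleotides. For Adgrl2 only the 98 bases ahead of the outermost exon annotated at that start are shown, and this start lies inside the gene, downstream of others.
Adgrl2, chr3:148954788-148954885, minus strand: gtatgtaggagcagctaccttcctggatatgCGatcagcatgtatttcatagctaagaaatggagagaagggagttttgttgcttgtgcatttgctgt
Adgrl4, chr3:151437632-151437881, plus strand: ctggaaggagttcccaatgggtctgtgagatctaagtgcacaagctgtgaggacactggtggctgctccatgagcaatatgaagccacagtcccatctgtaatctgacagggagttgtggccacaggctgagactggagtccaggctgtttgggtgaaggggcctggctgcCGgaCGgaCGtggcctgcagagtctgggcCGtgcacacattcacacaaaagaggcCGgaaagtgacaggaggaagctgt
Adgrf4, chr17:42692285-42692534, minus strand: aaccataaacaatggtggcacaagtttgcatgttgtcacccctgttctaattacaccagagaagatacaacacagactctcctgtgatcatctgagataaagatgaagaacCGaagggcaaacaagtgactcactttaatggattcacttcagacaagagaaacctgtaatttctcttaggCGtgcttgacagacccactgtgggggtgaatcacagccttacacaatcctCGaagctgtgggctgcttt
Celsr2, chr3:108415580-108415829, minus strand: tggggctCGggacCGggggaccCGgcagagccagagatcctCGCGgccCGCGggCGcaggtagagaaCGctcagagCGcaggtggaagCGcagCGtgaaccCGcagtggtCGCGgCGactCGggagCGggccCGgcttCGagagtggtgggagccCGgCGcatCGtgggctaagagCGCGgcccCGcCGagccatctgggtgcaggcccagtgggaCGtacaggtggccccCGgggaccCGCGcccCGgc

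Over the full 250 bases, the Adgrl2 and Adgrf4 regions each held 3 CG dinucleotides and the Adgrl4 region 5, against 32 in the Celsr2 region. The median of all 32851 such regions was 6. CG-rich regions were also found at Adgrb2 (35), Adgrg6 (32), Adgrg2 (26) and Adgra3 (25), while Adgrf1, Adgre4 and Adgrg7 had 1 or 2. The CG count did not sort the genes by level: Adgrl3 had 36 at one of its starts and was read in 2 libraries only. On either strand, TATAAA was found once before the Adgrl2 start, in the part not printed, AGATAA once before the Adgrf4 start and CCGGAAG in none of the 4 regions, against 12.4%, 9.99% and 6.91% of all regions with at least 1 match. A match of letters is a description and not a binding site.

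In wild type libraries Adgrl2 stood in the middle of the detected receptors. Its mean put it 12th by level among the 29 genes, behind Adgrg6 and ahead of Adgrb2, whose wild type ranges both overlapped its own. In single libraries its place was 12, 12 and 11 for wild type replicates 1 to 3, and 13, 15 and 15 for knockout replicates 1 to 3. The order as a whole was loose: of 18 neighbouring pairs among the 19 genes, 16 had wild type ranges that overlapped. The first pair, Adgrf4 and Adgrl1, and the third, Adgrg1 and Adgre5, did not overlap. Because each tag stands for 1 transcript end, levels were not divided by transcript length.

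One feature of the counts bears on that order. The 6 counts of Adgrf4, Adgre5 and Adgrb2 were all multiples of 4, those of Adgrg2 of 6 and those of Adgrg1 of 2. A level read from such counts may be that many times too high. Divided by 4, Adgrf4 stood at 82.9 ± 26 CPM across wild type libraries, below the 113 ± 89.01 CPM of Adgrl1. The first place of Adgrf4 in the wild type order is therefore not secure. Adgrg2 at 5.11 CPM and Adgrb2 at 2.64 CPM likewise moved down the order after division, and Adgrl2 moved to place 11. Fold changes do not depend on a divisor shared by all 6 counts of a gene.

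**Figure D1:**
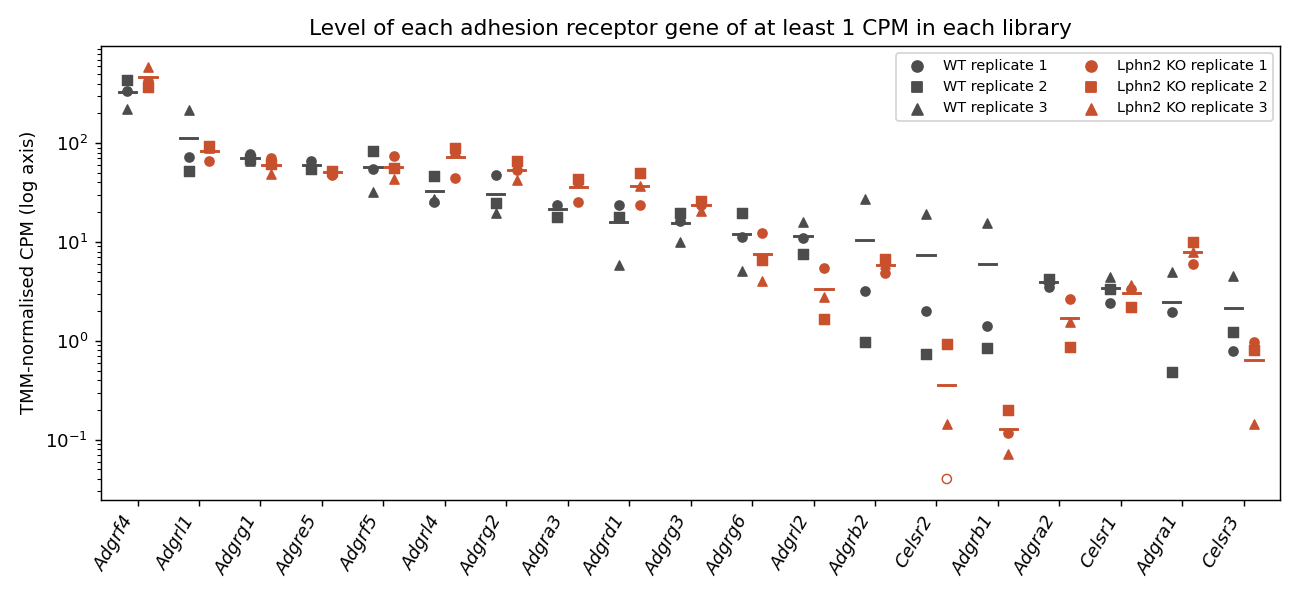
Level of the 19 receptor genes of at least 1 CPM in each library (TMM-normalised CPM, log axis), ordered by the wild type mean. Grey points are wild type and orange points Lphn2 KO libraries, shapes are replicates, bars are group means, and the hollow circle at the bottom is the 0 count of Celsr2 in knockout replicate 1. Adgrf4 lies at the top at 224 to 595 CPM, Adgrl2 in the middle at 1.67 to 15.96 CPM, and Celsr2 and Adgrb1 reach above 15 CPM across wild type replicate 3 alone.

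The comparison of genotypes asks which receptor transcripts differ in material labelled as lacking latrophilin-2. No receptor gene passed the threshold of an adjusted p of 0.05 in the quasi-likelihood test of edgeR, with 0 of 20 lower and 0 of 20 higher, where 0.0505% of the 13848 genes tested were called lower and 0% higher. At an unadjusted p under 0.05, 4 of 20 (20%) were lower and 3 of 20 (15%) higher, against 6.86% and 8.68% of all tested genes. DESeq2 called 2 lower (Adgrl2 and Celsr2) and 1 higher (Adgrl4), where it called 2.87% of all genes lower and 3.49% higher, and it gave no adjusted p for Adgrb1. All knockout libraries lay below all wild type libraries for 4 genes (Adgrl2, Adgrb1, Adgra2 and Adgre5; 9.39% of all tested genes) and above them for 3 (Adgra1, Adgra3 and Adgrg3; 12.1%). The median log2 fold change of the 20 genes was -0.19, beside -0.04 over all tested genes. Adgrb1 entered the test through wild type libraries alone and Celsr2 mainly through them, so these counts are a description.

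**Figure D2:**
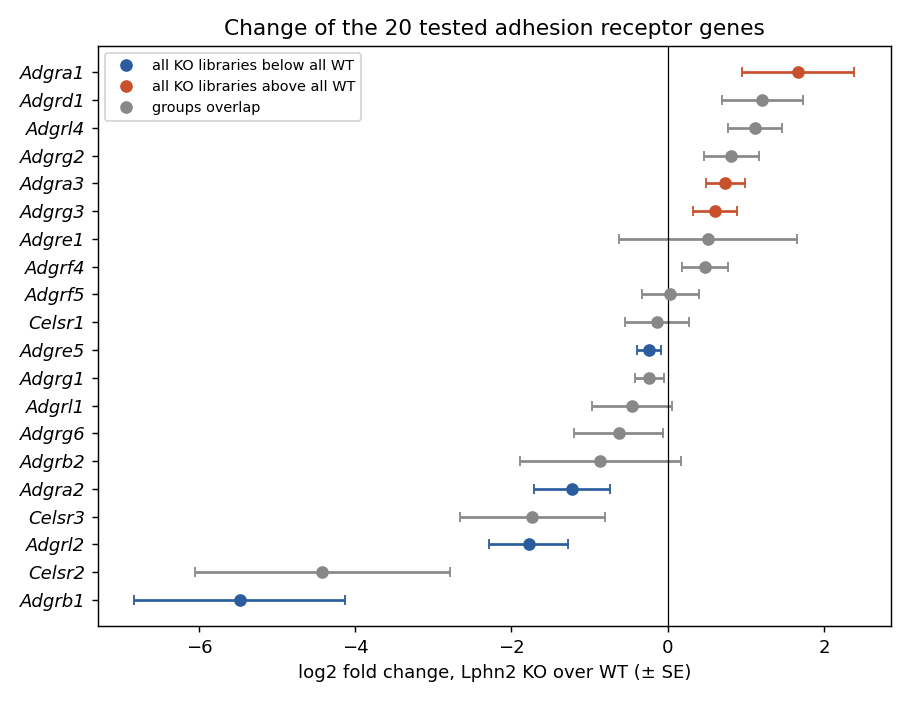
Log2 fold change of knockout over wild type with its standard error for the 20 tested receptor genes. Blue marks genes with all knockout libraries below all wild type libraries, orange the reverse and grey an overlap of the groups. Estimates run from -5.48 for Adgrb1 to 1.67 for Adgra1, and none passed the threshold in edgeR.

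Adgrl2 (minus strand of mm10 chromosome 3, bases 148815583 to 148990555, 20 annotated transcripts) was covered by 300, 124 and 611 counts in wild type replicates 1, 2 and 3 and by 140, 25 and 39 counts in the knockout replicates. These made 10.87, 7.56 and 15.96 CPM against 5.49, 1.67 and 2.78 CPM. The highest knockout library, replicate 1, lay under the lowest wild type library, replicate 2, with group means of 11.5 ± 4.24 and 3.31 ± 1.97 CPM (SD, n = 3). The difference was -1.78 ± 0.50 on the log2 scale (edgeR, adjusted p = 0.194). With DESeq2 the adjusted p was 0.0203, and without knockout replicate 1 it was 0.0442, in a range of 0.0203 to 0.574 over the alternatives. Without knockout replicate 1, Adgrl2 was the 1 receptor gene called lower and 0 were called higher, where 3.27% of all genes were called lower and 1.77% higher. Tags at the 3' end can lie outside a deletion, so transcripts from the targeted gene that remain in the knockout libraries do not check the genotype. Sums of yolk sac endoderm and neural markers were also lower in every knockout library than in any wild type library. Those of endothelial and natural killer markers were higher. The part of tissue content in the Adgrl2 difference was not tested.

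Within the L subfamily the share of Adgrl2 was smaller in every knockout library than in any wild type library. Of the summed Adgrl1 to Adgrl4 CPM it made up 10%, 7.06% and 6.17% over wild type replicates 1 to 3, and 4.76%, 0.908% and 1.59% over knockout replicates 1 to 3. For a single value, 3 against 3 libraries cannot give an exact two-sided permutation p below 0.1. The sum itself was 108, 107 and 259 CPM across wild type and 115, 184 and 174 CPM across knockout libraries, so the groups overlapped in it.

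Adgrl1 (latrophilin-1, chromosome 8, 83900105 to 83941954), a receptor for teneurins at synapses, was the most abundant of the subfamily. It was read at 72.02, 52.5 and 215.5 CPM across wild type and at 65.8, 93.2 and 89.2 CPM across knockout replicates 1, 2 and 3. The high value belonged to wild type replicate 3, the library with most neural marker counts, and the other 5 libraries lay close together. Its log2 fold change was -0.46 ± 0.51 (edgeR, adjusted p = 0.695) and turned to 0.40 without wild type replicate 3. The 3' end of Adgrl1 lies within the gene Gm10644 on the opposite strand, and whether the counting used strand is not given in the sources used here.

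Adgrl4 (also called Eltd1, chromosome 3, 151437887 to 151545086), the endothelial member of the subfamily, ran the other way. Wild type libraries stood at 25.5, 46.9 and 27.04 CPM and knockout libraries at 44.0, 88.7 and 82.4 CPM. Knockout replicates 2 and 3 lay above all wild type libraries, while knockout replicate 1 lay just under wild type replicate 2. The log2 fold change was 1.11 ± 0.35 (edgeR, adjusted p = 0.22; DESeq2, adjusted p = 0.0458; range over the alternatives 0.0458 to 0.588). It lay between 0.94 and 1.46 when any 1 library was left out. The summed level of 16 endothelial markers was 2216 to 3461 CPM across wild type and 3669 to 4673 CPM across knockout libraries, and 15 of the 16 had a log2 fold change above 0; its part in the Adgrl4 difference was not tested. Adgrl3 was nearly absent, at 0.235 CPM across wild type replicate 3, 0.118 CPM across knockout replicate 1 and 0 counts in the other 4 libraries.

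**Figure D3:**
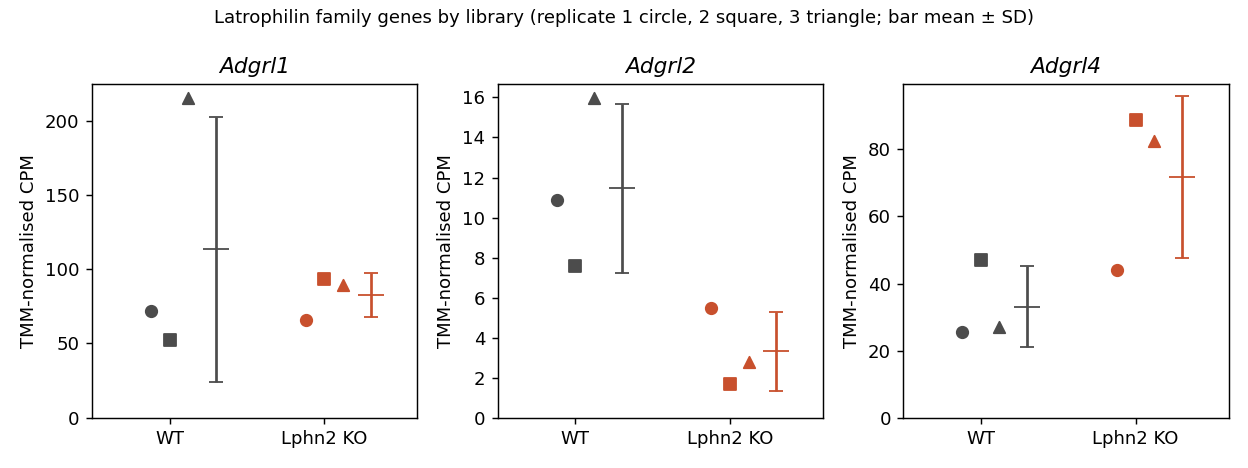
Adgrl1, Adgrl2 and Adgrl4 in each library (TMM-normalised CPM, axes from 0). Points are replicates (1 circle, 2 square, 3 triangle) and bars are mean ± SD of 3 libraries. Adgrl2 is lower in all 3 knockout libraries, Adgrl1 is high in wild type replicate 3 alone, and Adgrl4 is highest in knockout replicates 2 and 3 at 88.7 and 82.4 CPM.

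The tested ligand genes of latrophilins all had estimates below 0. None passed the threshold in edgeR, and DESeq2 called 2 lower, Nrxn2 and Flrt3, where it called 2.87% of all genes lower. Of 10 genes for FLRT proteins, teneurins and neurexins, 7 were tested, 0 passed in either direction in edgeR and 7 of 7 had a log2 fold change below 0 (median -2.58, beside -0.04 over all genes), with 5 lower at an unadjusted p under 0.05, beside 6.86% of all tested genes. Nrxn2, a neurexin of presynaptic membranes, was read at 17.9, 6.58 and 204 CPM across wild type and 6.71, 0.6 and 3.85 CPM across knockout libraries (log2 fold change -4.33 ± 1.42, edgeR adjusted p = 0.233, DESeq2 adjusted p = 0.0473). Flrt3, which binds latrophilins across cell contacts, was read at 13.3, 5.61 and 39.8 CPM across wild type and 6.51, 1.87 and 1.28 CPM across knockout libraries (-2.58 ± 0.87, edgeR adjusted p = 0.243, DESeq2 adjusted p = 0.0161). In both genes wild type replicate 3 was far above the rest and the groups overlapped. That library also held most neural marker counts, whose part in these values was not tested. Without it the median of the list was -1.02.

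The 5 Celsr and B subfamily genes of at least 1 CPM were all highest in wild type replicate 3, at 1.2 to 11.1 times the next library. Celsr2, a cadherin-type receptor of planar cell polarity (chromosome 3, 108390851 to 108415552), was read at 1.99, 0.731 and 19.2 CPM across wild type and 0, 0.933 and 0.143 CPM across knockout libraries. Wild type replicate 3 was 9.63 times the next library, and knockout replicate 2 lay above wild type replicate 2. The log2 fold change was -4.42 ± 1.64 (edgeR, adjusted p = 0.27; DESeq2, adjusted p = 0.023; range over the alternatives 0.023 to 0.633), and without wild type replicate 3 it was -1.98. Celsr3, its relative of axon tracts, stood at 0.797, 1.22 and 4.49 CPM against 0.98, 0.8 and 0.143 CPM (-1.74 ± 0.93, edgeR adjusted p = 0.41), and its log2 fold change was -0.62 without wild type replicate 3. Celsr1, the member of epithelia and skin, was the most even of them. It stood at 2.39, 3.35 and 4.44 CPM across wild type and 3.33, 2.2 and 3.71 CPM across knockout libraries, with a log2 fold change of -0.14 ± 0.41 (edgeR, adjusted p = 0.891) that turned to 0.10 without wild type replicate 3.

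Adgrb1 (BAI1, chromosome 15, 74516195 to 74589465), a receptor for phosphatidylserine on dying cells, had the lowest estimate of the class. It was read at 1.41, 0.853 and 15.6 CPM across wild type and at 0.118, 0.2 and 0.0713 CPM across knockout libraries, where 3, 3 and 1 counts were seen. All knockout libraries lay below all wild type libraries, and wild type replicate 3 was 11.1 times the next. The log2 fold change of -5.48 ± 1.35 (edgeR, adjusted p = 0.173) rests on so few counts that its size is loose, and it was -3.08 without wild type replicate 3. Adgrb2 (BAI2) stood at 3.19, 0.975 and 27.5 CPM across wild type and 4.86, 6.67 and 5.99 CPM across knockout libraries. Every knockout library thus lay above wild type replicates 1 and 2 and below replicate 3. Its log2 fold change was -0.86 ± 1.03 (edgeR, adjusted p = 0.715), turning to 1.46 without wild type replicate 3. Adgrb3 was read in wild type replicate 3 alone, at 2.59 CPM, with 0 counts in the other 5.

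Neural markers, like these genes, were highest in wild type replicate 3. Outside that library, the neural sum was lower in every knockout library than in wild type replicates 1 and 2. Adgrb1 went the same way, Adgrb2 went the other way, and in the Celsr genes the libraries overlapped. Wild type replicate 3 held 1006 CPM summed over the neural list and 359 CPM over 10 cardiomyocyte markers, where the next libraries held 112 and 88.5 CPM. Adgrl2 was also highest in wild type replicate 3, at 1.47 times the next library, and its log2 fold change was -1.46 without that library. The part of neural tissue in the Celsr, B subfamily, Adgrl1 and Adgrl2 values was not tested. Of the planar cell polarity core, 10 of 11 genes were tested, 0 passed in edgeR in either direction, 7 lay below 0 and 3 above (median -0.41, and -0.18 without wild type replicate 3), and 2 had an unadjusted p under 0.05, beside 15.5% of all tested genes. DESeq2 called 1 lower, Fzd3, where it called 2.87% of all genes lower. Fzd3, the frizzled receptor that works with Celsr3 in axon guidance, stood at 19.4, 4.08 and 53.2 CPM against 4.43, 1.13 and 1.35 CPM (-3.44 ± 0.97, edgeR adjusted p = 0.194, DESeq2 adjusted p = 0.00108), with -2.31 without wild type replicate 3. Prickle1, a cytoplasmic polarity protein, went the other way, at 34.1, 28.4 and 26.1 CPM against 35.3, 62.3 and 59.02 CPM (0.82 ± 0.25, edgeR adjusted p = 0.214).

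**Figure D4:**
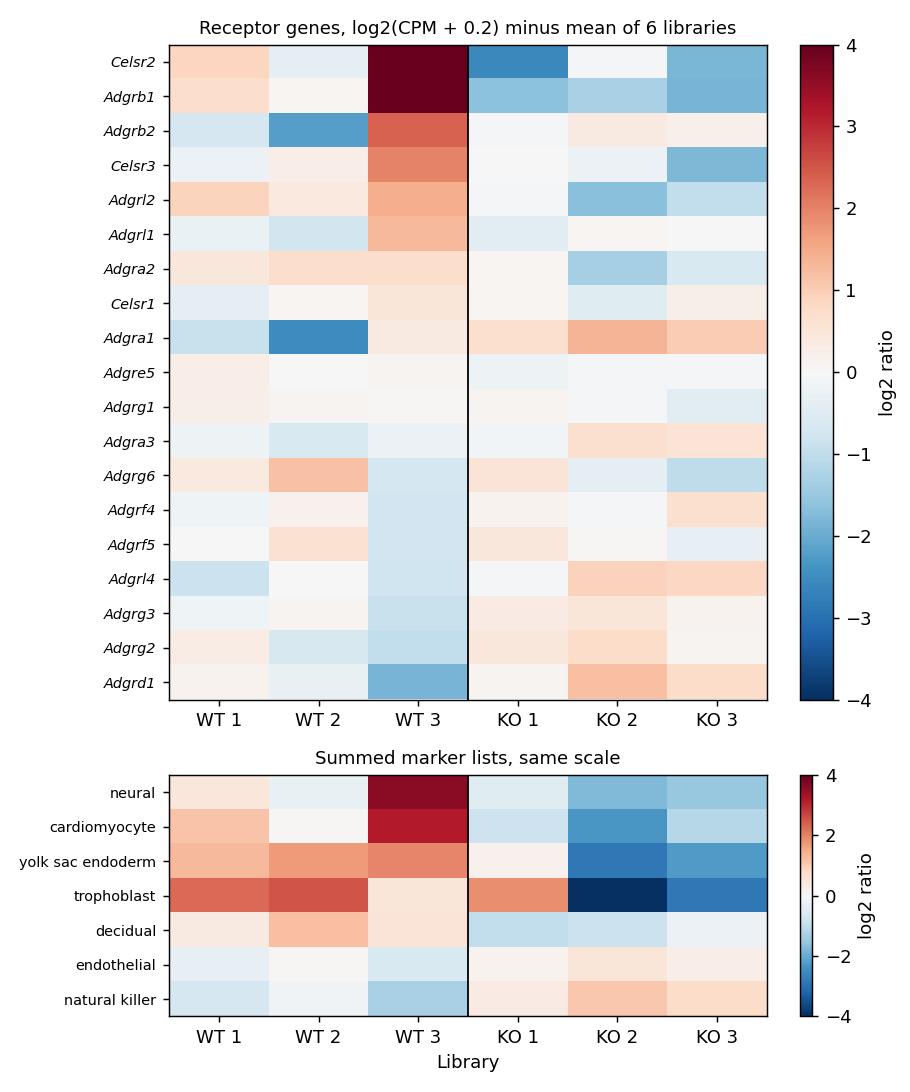
Level of the 19 receptor genes in each library as log2(CPM + 0.2) minus the mean of the 6 libraries (top), and summed marker lists on the same scale (bottom), with colours limited to ±4. Rows of the top panel are ordered by wild type replicate 3. The genes at the top of it, Celsr2, Adgrb1, Adgrb2 and Celsr3, are high in the library that also holds 1006 CPM of neural markers, and Adgrd1 at the bottom is lowest there.

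The A subfamily split. Adgra2 (Gpr124), which with Reck serves as a Wnt7 co-receptor in brain vessels, was even in the wild type group, at 3.51, 4.21 and 4.21 CPM, and stood at 2.63, 0.867 and 1.57 CPM across the knockout. All knockout libraries lay below all wild type libraries. Its log2 fold change was -1.22 ± 0.49 (edgeR, adjusted p = 0.299), and its last bases overlap those of Brf2 on the other strand. Adgra3 (Gpr125), a relative of broad expression, was higher in all knockout libraries, at 23.7, 17.8 and 23.4 CPM across wild type and 25.2, 43.2 and 39.99 CPM across the knockout. Knockout replicate 1 exceeded the highest wild type library by little. The log2 fold change was 0.74 ± 0.25 (edgeR, adjusted p = 0.248; range over the alternatives 0.0504 to 0.621). Adgra1 (Gpr123), known from brain, was read at 1.96, 0.488 and 4.91 CPM across wild type and 6.04, 9.93 and 7.84 CPM across knockout libraries. It had the highest estimate of the class, 1.67 ± 0.72 (edgeR, adjusted p = 0.329), opposite in sign to those of Adgrb1 and Celsr2.

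The E subfamily carries EGF-like repeats and marks leukocytes. Adgre5 (CD97, chromosome 8, 83723251 to 83741326), whose ligand is the complement regulator Cd55, was read at 65.3, 54.1 and 59.5 CPM across wild type and 48.0, 52.3 and 51.6 CPM across knockout libraries. The groups did not overlap, yet the gap was small, with a log2 fold change of -0.24 ± 0.15 (edgeR, adjusted p = 0.502). Its 3' end overlaps Ddx39 on the opposite strand, so the reads of these genes cannot be told apart without strand. Adgre1 (F4/80), the classical macrophage marker of the mouse, was scarce: 1.56, 0 and 0.706 CPM across wild type and 0.941, 0.8 and 1.57 CPM across knockout libraries (0.52 ± 1.14, edgeR adjusted p = 0.85), and its fold change turned to -0.027 without wild type replicate 2. Summed over 13 macrophage markers, wild type libraries held 291 to 629 CPM and knockout libraries 347 to 412 CPM, so the groups overlapped. Csf1r made up most of the wild type sums and was lower in all knockout libraries. Of the 13 markers, 8 had a log2 fold change above 0 and 5 below (median 0.43). Adgre4 stayed at or below 0.869 CPM.

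Of the 5 F subfamily genes, 4 lie in 2 neighbouring pairs on chromosome 17, and in each pair 1 gene was abundant and its neighbour near 0. Adgrf4 (Gpr115, 42656891 to 42692284), known from epithelia such as skin and enamel, was read at 340.2, 431 and 224 CPM across wild type and 421, 368 and 595 CPM across knockout libraries. The groups overlapped, and the log2 fold change was 0.48 ± 0.29 (edgeR, adjusted p = 0.479). Adgrf2, the next gene, 16651 bases away, was read at 0.0362 and 0.792 CPM across wild type replicates 1 and 2 and at 0 counts elsewhere. Summed epithelial markers were 378 to 791 CPM across wild type and 340 to 799.9 CPM across knockout libraries. Cdh1 was the largest part of each sum, and 8 of the 10 markers had a log2 fold change below 0 (median -1.01). The part of these markers in the Adgrf4 values was not tested.

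Adgrf5 (Gpr116, 43360451 to 43459557), a receptor of vessel walls and of lung surfactant control, was read at 55.3, 82.9 and 31.96 CPM across wild type and 74.7, 55.8 and 43.2 CPM across knockout libraries. Its log2 fold change of 0.03 ± 0.36 (edgeR, adjusted p = 0.976) turned to -0.26 without wild type replicate 3 and to -0.20 without knockout replicate 1. It thus gave no difference of the kind seen in Adgrl4, the endothelial member of the L subfamily, although the difference between these estimates was not tested. Its neighbour Adgrf1, 35713 bases away, had 1 count in all, and Adgrf3, on chromosome 5, had 0 counts in every library, which allows up to 0.0784 CPM in the deepest.

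In the G subfamily a second run of neighbours lies on chromosome 8, with Adgrg5, Adgrg1 and Adgrg3 in that order. Adgrg1 (Gpr56, 94974751 to 95014217), a collagen III receptor of neural progenitors that killer lymphocytes also carry, was even at 77.1, 69.6 and 66.5 CPM across wild type and 69.96, 62.1 and 48.6 CPM across knockout libraries (log2 fold change -0.24 ± 0.19, edgeR adjusted p = 0.573). Adgrg3 (Gpr97, 95017692 to 95045250), known from granulocytes, was higher in all knockout libraries, at 23.5, 26 and 20.7 CPM against 16.4, 19.9 and 9.93 CPM (0.61 ± 0.28, edgeR adjusted p = 0.362). Adgrg5 was seen in knockout replicate 1 alone, at 0.314 CPM. Summed over 7 granulocyte markers, wild type libraries held 824 to 1434 CPM and knockout libraries 2148 to 3847 CPM. S100a8 made up nearly all of each sum, and 4 of the 5 tested markers had a log2 fold change below 0. Their part in the Adgrg3 values was not tested. Over 11 natural killer markers, the sums were 239 to 524 CPM and 728 to 1216 CPM, and their part in the Adgrg1 values was not tested.

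Adgrg2 (Gpr64, chromosome X), the receptor of the epididymal duct, was read at 47.6, 24.9 and 19.6 CPM across wild type and 53.9, 65.2 and 42.3 CPM across knockout libraries. Only knockout replicate 3 fell within the wild type range, and the log2 fold change was 0.81 ± 0.35 (edgeR, adjusted p = 0.331). An antisense gene, Gm15241, covers its 3' end. Adgrg6 (Gpr126, chromosome 10), a receptor for collagen IV needed for myelination and for the heart of the mouse embryo, was read at 11.2, 19.4 and 5.12 CPM across wild type and 12.3, 6.53 and 4.06 CPM across knockout libraries. The groups overlapped (-0.63 ± 0.57, edgeR adjusted p = 0.627), and the estimate was -0.07 without wild type replicate 2 and -1.17 without knockout replicate 1. Adgrg7 had 1 count in all.

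Adgrd1 (Gpr133, chromosome 5), a receptor that raises cyclic AMP, was lowest in wild type replicate 3. It stood at 23.9, 17.8 and 5.85 CPM across wild type and 23.6, 50.1 and 36.4 CPM across knockout libraries, so knockout replicates 2 and 3 lay above all wild type libraries and replicate 1 within them. The log2 fold change was 1.21 ± 0.52 (edgeR, adjusted p = 0.321). Adgrv1, the very large receptor of hair cell bundles, stayed at or under 0.499 CPM.

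Among partners of the other receptors and the signalling proteins downstream, edgeR called no gene and DESeq2 called 4. Of 22 binding partners, 17 were tested, with 0 past the threshold in edgeR, 10 below 0 and 7 above (median -0.83). At an unadjusted p under 0.05, 3 were lower and 2 higher, where 15.5% of all tested genes passed in either direction. The median was -0.42 without wild type replicate 1 and turned to 0.17 when genes had to reach 5 CPM in 3 libraries. DESeq2 called Prnp and Wnt7b lower and Thy1 and Cd55 higher, where it called 2.87% of all genes lower and 3.49% higher. Prnp, the prion protein, whose flexible tail activates Adgrg6, was read at 538, 788 and 481.5 CPM across wild type and 188, 218 and 342 CPM across knockout libraries. All knockout libraries were lower (-1.27 ± 0.30, edgeR adjusted p = 0.172; DESeq2 adjusted p = 0.00179; range over the alternatives 0.00179 to 0.574). Thy1, the CD90 surface protein bound by CD97, was higher in all knockout libraries, at 20.9, 40.7 and 26.6 CPM against 13.6, 16.6 and 8.81 CPM (1.18 ± 0.34, edgeR adjusted p = 0.194; DESeq2 adjusted p = 0.0362; range 0.0362 to 0.586).

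G alpha subunits and arrestins, which carry and end the signal of these receptors, had a median near 0. Of 14 genes, 12 were tested, 6 lay below 0 and 6 above, and the median log2 fold change was 0.01. In edgeR or DESeq2 0 passed, and 1 had an unadjusted p under 0.05 in edgeR, beside 15.5% of all tested genes. That gene was Gnai3, an inhibitory G alpha subunit, at 65.4, 76.96 and 60.96 CPM across wild type and 83.1, 98.7 and 98.9 CPM across knockout libraries (0.47 ± 0.17, edgeR adjusted p = 0.263). Gna14, of the Gq group, stood at 5.94, 7.68 and 5.49 CPM against 4.71, 13 and 9.48 CPM, and its groups overlapped (0.51 ± 0.40, edgeR adjusted p = 0.579).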

How the data were processed

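The authors deposited raw counts for each gene symbol in a separate table for every sample. The submitters' processing notes name Bowtie2, edgeR and build mm10; which annotation and counting program were used, and whether strand was used, is not given in the sources used here. Groups came from the sample titles. Low genes were removed by filterByExpr in edgeR 4.0.16 (minimum count 10), and libraries were scaled by TMM and tested by quasi-likelihood without covariates in R 4.3.3, with Benjamini-Hochberg adjustment over all tested genes and a threshold of 0.05. SE is the absolute log2 fold change divided by the square root of F. The test was checked only on simulated counts with the same spread for every gene and no outlying library. That check does not cover libraries that stand apart, as some do here. DESeq2 1.42.0, other scalings and filters, division of counts by their common divisor (genes with at least 10 counts in every library), a replicate block and each library left out were alternatives. Receptor genes of at least 1 CPM are given per library; of each list of partners, genes past the threshold or else the 2 with the smallest p. The members and lists were chosen with earlier results of these data known. Positions are from GENCODE M21 (mm10), start regions from RefSeq (GRCm38.p6). Sample descriptions carry a code beginning with another number for wild type replicate 1 than for the other 5 samples. Its meaning is not stated, and 1 sample allows no comparison within it. Figures used Python 3.11.15 and matplotlib 3.10.9.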

Additional observations from a re-analysis of the deposited data

How the results depend on the processing

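Over 356 refits of 28 single-gene fold changes, 338 kept direction and side of the threshold, 10 passed it anew and 8 changed sign. DESeq2 called 387 genes lower and 470 higher, among them 2 receptor genes lower and 1 higher, with Adgrl2 at -1.79. Leaving out 1 library gave 0 to 466 genes lower (7 with all libraries; 0 without wild type replicate 1, knockout replicate 2 or 3, 11 without wild type replicate 2 and 466 without knockout replicate 1), 0 to 252 higher, 0 to 1 receptor genes lower, and log2 fold changes of -2.36 to -1.45 for Adgrl2, -1.38 to 1.46 for Adgrb2, -0.78 to 0.40 for Adgrl1, -0.26 to 0.42 for Adgrf5, -0.33 to 0.10 for Celsr1 and -0.027 to 1.56 for Adgre1. List medians then ranged from -3 to -1.02 (latrophilin ligands), -1.02 to -0.42 (other partners), -0.57 to -0.18 (polarity core) and -0.0083 to 0.12 (G alpha subunits and arrestins). With at least 5 CPM in 3 libraries, where fewer genes are tested, the medians of the other partners and of the polarity core were 0.17 and -0.23. Adgrl2 took place 11 in wild type with the common divisor removed and 11 to 13 with 1 wild type library left out. Whether the replicate numbers pair the samples could not be decided, since the labels name no pairing and the correlations were few and weak. The r of same-numbered deviations was 0.135, -0.036 and 0.087, and that of the other pairs lay between -0.122 and 0.083. Replicates 1 and 3 of both groups correlated best with their own number, and replicate 2 of neither group did. With a replicate block 0 genes were lower, Adgrb2 stood at 0.36 and the polarity median at -0.28. The cause of these changes was not tested. Levels under 0.214 CPM are not resolved in the shallowest library.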
